A study of Mus musculus with 9 samples.

Results

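Semaphorins, plexins, neuropilins, netrins, UNC5 proteins, slits, ROBO proteins and FLRT proteins are the guidance molecules that steer growing axons and many migrating cells. All genes were taken whose single gene symbol on the array starts with Sema3 to Sema7, Plxn, Nrp, Slit, Robo, Ntn, Unc5 or Flrt and ends in the usual letter or digit. This gave 50 of 17097 measured genes: 20 semaphorins, 9 plexins, 2 neuropilins, 6 netrins, 4 Unc5 genes, 2 slits, 4 Robo genes and 3 Flrt genes. Unc50 has letters that fit the rule but names an unrelated protein and was left out, as were Unc5cl and the Slitrk genes.

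The genes were followed in basal keratinocytes of CD1 mouse tail skin on day 4 after a wound of 3 mm in diameter, with 1 Affymetrix array for each sample of 300 sorted cells. Cells of the interfollicular epidermis, the epidermis between hair follicles, were sorted as α6 integrin positive and CD34 negative in all 3 groups. Leading edge cells, from the epidermis bordering the wound, came from a 4 mm punch and were also α5 integrin (ITGA5) positive. Proliferative hub cells, from the zone behind it, came from a 6 mm punch and were α5 integrin negative. Control cells were taken at a distance from the wound, and for them the labels mention no gating on α5 integrin. Region and α5 integrin gate therefore cannot be told apart. Each group had 3 arrays, which the labels call biological and the methods technical replicates, so that p-values measure only the spread between these samples. The methods give a pool of 5 mice for another set of arrays and no pool size for these. Neither animal age nor an RNA quality value is given for these arrays in the sources used here.

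Semaphorins bind plexins, either directly or, for the secreted class 3, through neuropilins held in the same receptor complex. Several netrins bind DCC, neogenin and UNC5 receptors, and slits bind ROBO receptors. FLRT proteins sit in the membrane and bind UNC5 receptors and latrophilins on neighbouring cells. In skin these molecules are known from nerve and vessel patterning, and several are also made by keratinocytes, where plexin B receptors and their ligands take part in epithelial migration and wound repair.

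All values are log2 signal after the authors' normalization, and differences are log2 fold changes with their standard error from 1 limma fit over 9 arrays. A gene was called at an adjusted p under 0.05, adjusted over all 17097 genes. The 23 probe sets that read nonspecific background lay between 3.702 and 8.32, around a median of 4.67. Of the 50 genes, 33 had all group means inside this range and 17 exceeded it in at least 1 group. The array medians lay between 6.47 and 6.53. Basal keratinocyte markers were bright on every array, with a list mean of 12.21 to 12.47 over 9 genes. Among markers of other cells, the mean of 18 myeloid genes was 6.56, 5.88 and 6.51 in leading edge replicates 1 to 3 against 5.78 to 5.88 in the hub and control, with Cd14 called higher than in the hub and Lyz2, Ctss and Cd14 called higher than in the control. The mean of 5 Langerhans cell genes was 7.11, 7.18 and 7.77 in the leading edge against 6.71 to 6.87 in the hub and 6.62 to 6.64 in the control, with H2-Ab1 and Cd1d1 called higher than in both, and the defining marker Cd207 at 5.02 to 5.44 on all arrays and not called. The mean of 12 endothelial genes was 7.15, 6.30 and 6.38 in the leading edge, 6.27 to 6.65 in the hub and 6.01 to 6.26 in the control, and 0 of the 12 were called by limma in any comparison. The mean of 9 fibroblast genes was lower in the leading edge, at 6.64 to 6.74, than in the hub, at 6.97 to 7.08, and the control, at 7.18 to 7.20. Of these fibroblast genes, 2 were called lower than in the hub (Thy1 and Postn) and 3 lower than in the control (those and Dcn). Their median difference was -0.07 from the hub and -0.19 from the control. Thy1 is also in the list of 5 T cell genes, where it was the only gene called. The mean of that list was 6.84 to 7.03 in the leading edge, 7.13 to 7.24 in the hub and 7.10 to 7.26 in the control. The mean of 7 melanocyte genes was 6.79 in leading edge replicate 3 and 5.87 to 6.25 on all other arrays. The mean of 6 Merkel cell genes was 5.85 to 5.93 in the leading edge, 5.73 to 5.79 in the hub and 5.66 to 5.77 in the control. Of these, Krt18 was called higher in the leading edge than in both. For 4 Schwann cell genes the means were 7.65 to 7.88, 7.81 to 7.90 and 7.77 to 7.91 in the same order. These are bulk samples, in which fewer cells of a type and less RNA per cell cannot be told apart.

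The leading edge differed from the hub in a small set of ligands and receptors. Flrt2, Flrt3, Sema6d, Sema4d, Sema4b and Sema3c were higher in the leading edge, and Sema4g, Robo1 and Unc5b were lower. These 9 of 50 genes are 18% of the family, where 10.6% of all genes were called. The 6 that rose are 12% against a background of 5.39%, and the 3 that fell are 6% against 5.23%. Against the control, the leading edge had 9 genes higher and 10 lower, which is 38% of the family where 22.8% of all genes were called (11.9% higher and 10.8% lower). The hub differed from the control in 4 genes, which is 8% against a background of 7.28%. Of these, 3 were higher and 1 lower, where 4.16% and 3.12% of all genes were. All 3 comparisons draw on the same 9 arrays, so the leading edge arrays enter 2 of them and the control arrays enter 2. Of the 50 genes, 20 were called in at least 1 comparison and 3 (Flrt2, Sema4d and Sema6d) in all 3. The median log2 difference over the 50 genes was -0.01 between leading edge and hub and -0.02 between leading edge and control, where the medians over all genes were -0.01 and 0.02.

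**Figure D1:**
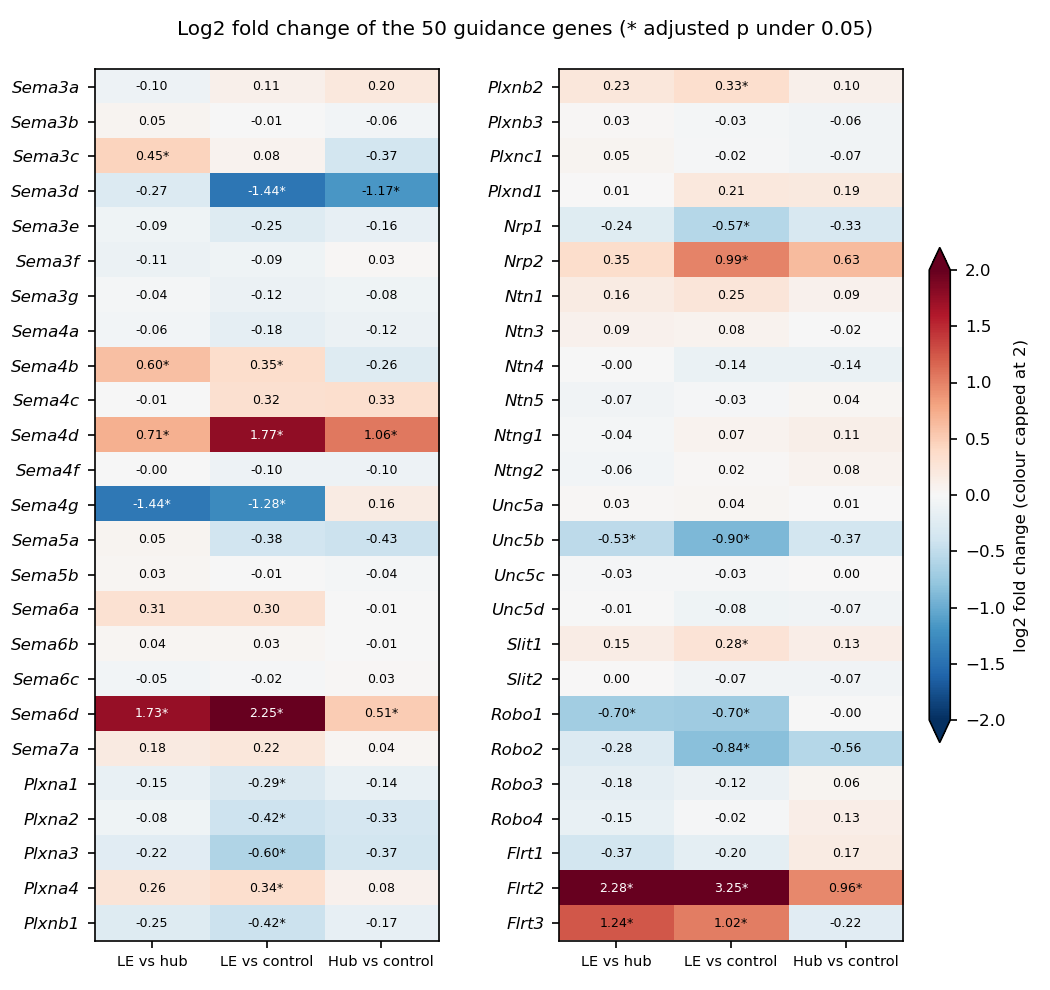
Log2 fold change of each of the 50 guidance genes in the 3 comparisons, ordered by family, with colour capped at 2 and an asterisk where the adjusted p was under 0.05. Flrt2, Flrt3, Sema6d and Sema4d are the most strongly red in the leading edge columns, while most netrin, slit and Unc5 genes are near white.

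FLRT genes showed the largest difference of the family. Flrt2 had a log2 signal of 11.30, 11.17 and 11.36 in the leading edge, 9.0, 8.85 and 9.14 in the hub and 8.41, 7.84 and 7.85 in the control. The 3 groups did not overlap, with every leading edge array highest and every control array lowest. Flrt2 was higher in the leading edge than in hub cells by 2.28 ± 0.15 (4.86-fold, adjusted p = 2.70e-05) and than in the control by 3.25 ± 0.15 (9.48-fold, adjusted p = 8.84e-07). It was also higher in the hub than in the control, by 0.96 ± 0.15 (1.95-fold, adjusted p = 0.00506). The control mean of 8.03 lay inside the range of nonspecific background, where differences are compressed. All 3 probe sets of Flrt2 were called in each comparison, with differences of 2.28 to 2.50 between leading edge and hub. The gene lies at chr12:95692006-95785215 (GRCm38.p6).

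Flrt3 read 11.52, 11.56 and 11.45 in the leading edge, 10.23, 10.19 and 10.38 in the hub and 10.51, 10.49 and 10.46 in the control. The leading edge arrays stood above all others, and the hub arrays lay just below the control arrays. Flrt3 was higher in the leading edge than in hub cells by 1.24 ± 0.07 (2.37-fold, adjusted p = 1.91e-05) and than in the control by 1.02 ± 0.07 (adjusted p = 1.10e-05). The hub was 0.22 below the control, with a 95% interval of -0.39 to -0.06 and an adjusted p of 0.117. Flrt1, the third family member, had group means of 6.31 (leading edge), 6.68 (hub) and 6.51 (control), inside the background range, and was not called (-0.37, adjusted p = 0.0767 between leading edge and hub). The calls of Flrt2 and Flrt3 in the leading edge held in every alternative fit that was run.

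Unc5b, a netrin receptor that also binds FLRT proteins, went the other way. It read 9.32, 8.85 and 8.79 in the leading edge, 9.52, 9.56 and 9.46 in the hub and 9.74, 10.09 and 9.82 in the control. The leading edge was lowest and the control highest, without overlap, although leading edge replicate 1 sat close to the hub. Unc5b was lower in the leading edge than in the control by -0.90 ± 0.14 (1.86-fold, adjusted p = 0.00136). Against the hub it was lower by -0.53 ± 0.14 (1.44-fold, adjusted p = 0.0419). The call against the hub was lost when leading edge replicate 2 or 3, any 1 hub array or control replicate 3 was left out (-0.69 to -0.43, adjusted p up to 0.145), and the call against the control was not lost. The difference from the hub was also no longer called with a replicate block (-0.53), median centring (-0.51), the mean of both probe sets (-0.35) or the myeloid mean as a covariate (-0.69). The 2 probe sets of Unc5b gave -0.53 and -0.18 between leading edge and hub. Unc5a, Unc5c and Unc5d differed by -0.08 to 0.04 over the comparisons with the leading edge, and 0 of these 3 were called by limma (0 at an unadjusted p under 0.05). Unc5d, a known partner of FLRT2, read 4.77 to 4.96 on all 9 arrays, near the background median.

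Latrophilins, the other class of FLRT receptor, were chosen for description after their values were seen. Adgrl3 read 5.12, 5.20 and 4.87 in the leading edge, 5.85, 5.68 and 4.96 in the hub and 6.89, 6.87 and 6.33 in the control. The control arrays were highest, and leading edge and hub overlapped. Adgrl3 was lower in the leading edge than in the control by -1.63 ± 0.23 (adjusted p = 0.000761), Adgrl1 by -0.90 ± 0.19 (adjusted p = 0.00826) and Adgrl2 by -0.63 ± 0.11 (adjusted p = 0.003). Between leading edge and hub the 3 latrophilins differed by -0.58, -0.18 and -0.43 for Adgrl1, Adgrl2 and Adgrl3, and 0 of 3 were called by limma (adjusted p = 0.0985, 0.43 and 0.33; only Adgrl1 had an unadjusted p under 0.05). With the myeloid mean as a covariate, the differences of Adgrl1 and Adgrl2 from the control stayed at -0.93 and -0.62 and were not called (adjusted p = 0.117 and 0.0752). As the mean of all its probe sets, Adgrl3 differed from the control by -0.55 and was called (adjusted p = 0.00414). The ligands Flrt2 and Flrt3 were therefore more strongly expressed at the leading edge than in control skin, while Unc5b and 3 latrophilins were lower.

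**Figure D2:**
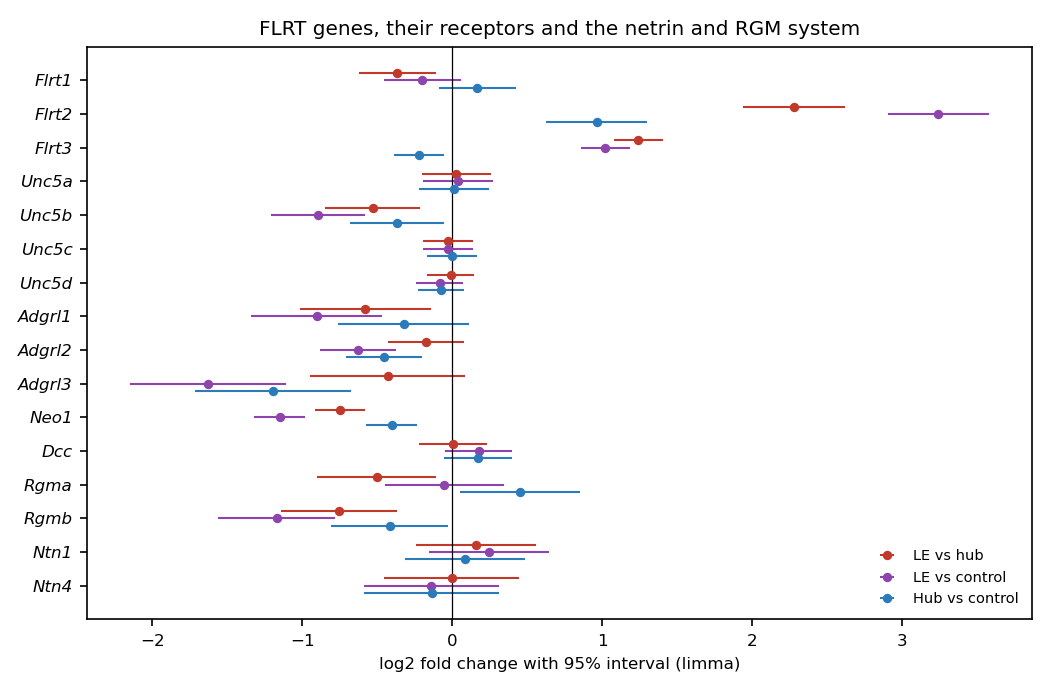
Log2 fold change with its 95% interval from limma for FLRT genes, their UNC5 and latrophilin receptors, and the netrin, neogenin and RGM genes, in 3 comparisons shown by colour. Flrt2 and Flrt3 lie right of 0 in both leading edge comparisons, and Unc5b, the 3 Adgrl genes, Neo1 and Rgmb lie left of 0 against the control.

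Start regions of 3 called genes are shown because the FLRT3 and UNC5B proteins bind each other and their genes went opposite ways, and because Sema4b is a gene that rose, like Flrt3, with a start region richer in G and C. These are the 250 bases before the start site in RefSeq (GRCm38.p6), which lie outside the gene, 5′ to 3′, with matches to the GC box GGGCGG on either strand in capitals. The Flrt3 region is at chr2:140671477-140671726 on the minus strand, that of Unc5b at chr10:60831582-60831831 on the minus strand and that of Sema4b at chr7:80186620-80186869 on the plus strand.
Flrt3: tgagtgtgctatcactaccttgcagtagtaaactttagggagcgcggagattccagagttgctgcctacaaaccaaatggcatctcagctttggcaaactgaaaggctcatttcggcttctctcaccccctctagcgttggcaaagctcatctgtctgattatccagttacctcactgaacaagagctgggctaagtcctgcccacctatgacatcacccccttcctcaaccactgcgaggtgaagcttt
Unc5b: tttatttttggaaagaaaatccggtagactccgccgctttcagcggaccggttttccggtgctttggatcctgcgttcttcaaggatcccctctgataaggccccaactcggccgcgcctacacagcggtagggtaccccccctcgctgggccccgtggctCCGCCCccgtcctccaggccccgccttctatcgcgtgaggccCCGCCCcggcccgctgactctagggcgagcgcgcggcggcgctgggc
Sema4b: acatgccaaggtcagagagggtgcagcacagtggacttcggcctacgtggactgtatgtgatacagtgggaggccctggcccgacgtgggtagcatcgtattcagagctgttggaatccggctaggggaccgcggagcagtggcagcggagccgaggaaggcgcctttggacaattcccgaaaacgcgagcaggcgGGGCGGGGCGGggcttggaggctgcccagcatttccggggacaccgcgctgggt
The share of G and C was 50% for Flrt3, 66.8% for Unc5b and 64.4% for Sema4b. Flrt3 held 0 GC boxes, Unc5b 2 and Sema4b 2 that share 1 base. None of the 3 regions held the AP-1 motif TGANTCA or the TEAD motif GGAATG. Over windows of 300 bases at gene starts, 41 of the 50 guidance genes had 54 windows, of which 63% held a GC box, 5.56% an AP-1 motif and 11.1% a TEAD motif. Over all 32851 windows the shares were 35.7%, 7.81% and 14.7%. Among the 9 genes called between leading edge and hub, 1 window of Sema4d held an AP-1 motif and none held a TEAD motif. A match is a description of letters and no evidence of binding.

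Semaphorins, 20 of the 50 genes, gave 5 of the 9 calls between leading edge and hub, where 10.6% of all genes were called. Sema6d, a transmembrane semaphorin that signals through plexin A receptors, read 8.76, 8.41 and 8.52 in the leading edge, 6.63, 6.86 and 7.003 in the hub and 6.39, 6.29 and 6.28 in the control. The groups did not overlap, and the gap between leading edge and hub was wider than that between hub and control. It was higher in the leading edge than in hub cells by 1.73 ± 0.12 (3.33-fold, adjusted p = 2.86e-05) and than in the control by 2.25 ± 0.12 (4.75-fold, adjusted p = 1.59e-06). The hub and control levels lay within the range of nonspecific background, where differences are compressed. The difference between hub and control was 0.51 ± 0.12 (adjusted p = 0.0281). That call was lost without hub replicate 2 or 3 or control replicate 2 or 3 (0.43 to 0.61, adjusted p up to 0.103), and with a replicate block (adjusted p = 0.0601), while the mean of its probe sets gave 0.20 and was not called. The 4 probe sets of Sema6d gave 0.45 to 1.73 between leading edge and hub, with 3 called, and 0.56 to 2.25 between leading edge and control, with 4 called. The direction was shared and the size was not, and the mean of the 4 gave 0.97 against the hub and 1.17 against the control, both called.

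Sema4d, a ligand of plexin B1 and B2, read 10.08, 10.31 and 10.15 in the leading edge, 9.37, 9.41 and 9.62 in the hub and 8.39, 8.22 and 8.61 in the control. It stepped down from leading edge to hub to control without overlap. The leading edge was higher than the control by 1.77 ± 0.11 (3.42-fold, adjusted p = 6.10e-06) and than the hub by 0.71 ± 0.11 (1.64-fold, adjusted p = 0.00363). The hub was higher than the control by 1.06 ± 0.11 (2.09-fold, adjusted p = 0.000831). The second probe set of Sema4d gave smaller differences. It gave 1.02 between leading edge and control, which was called. Between leading edge and hub it gave 0.39, and between hub and control 0.63, neither called. The mean of both probe sets gave 1.39, 0.55 and 0.84 in the same order, all called. Sema4d is also made by leukocytes, whose myeloid, Langerhans cell and T cell marker means are given above. The covariate used next holds only the myeloid markers, and the part of leukocytes in this result was not tested. With the myeloid mean as a covariate, Sema4d was higher than in the hub by 0.84 (adjusted p = 0.0319) and than in the control by 1.91 (adjusted p = 0.00039). With leading edge replicate 2 as the only leading edge array, the differences were as large, 0.84 and 1.90, and the adjusted p of 0.05003 against the hub was just over the threshold.

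Sema4b, another transmembrane semaphorin of class 4, read 11.03, 11.12 and 11.05 in the leading edge, 10.47, 10.30 and 10.62 in the hub and 10.61, 10.79 and 10.77 in the control. The leading edge arrays were highest, and hub and control overlapped. Sema4b was higher in the leading edge than in hub cells by 0.60 ± 0.09 (1.52-fold, adjusted p = 0.00281) and than in the control by 0.35 ± 0.09 (1.27-fold, adjusted p = 0.0233). The call against the control was lost without leading edge replicate 2 or 3 or control replicate 1 (0.29 to 0.38, adjusted p up to 0.0797). It was also lost with quantile normalization repeated. The second probe set of Sema4b gave 0.15 against the control and the mean of both 0.25, neither called (adjusted p = 0.466 and 0.0727). Against the hub they gave 0.52 and 0.56, both called. Sema3c, a secreted semaphorin of class 3, read 10.93, 10.86 and 10.84 in the leading edge, 10.36, 10.61 and 10.32 in the hub and 10.61, 11.05 and 10.75 in the control. It was higher in the leading edge than in hub cells by 0.45 ± 0.12 (1.36-fold, adjusted p = 0.0417), and the leading edge lay inside the control's range (0.08, adjusted p = 0.721). The call was lost when any 1 leading edge array, hub replicate 1 or 3, or control replicate 3 was left out (0.40 to 0.54, adjusted p up to 0.137). It was also not called with the myeloid (0.42) or endothelial (0.44) mean as a covariate.

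Sema4g, a transmembrane class 4 member, fell. It read 6.43, 6.70 and 6.55 in the leading edge, 8.11, 7.96 and 7.92 in the hub and 7.60, 8.35 and 7.56 in the control. Leading edge arrays were the lowest, and hub and control overlapped. The leading edge was lower than the hub by -1.44 ± 0.19 (2.71-fold, adjusted p = 0.00123) and than the control by -1.28 ± 0.19 (2.43-fold, adjusted p = 0.000928). The array has 1 probe set for Sema4g, and all group means lay within the background range. With leading edge replicate 2 as the only leading edge array, Sema4g differed by -1.29 from the hub and -1.14 from the control, and neither was called (adjusted p = 0.0714 and 0.0586). Within class 4, Sema4b and Sema4d were therefore higher and Sema4g lower in the leading edge than in the hub. Sema4a, Sema4c and Sema4f differed from the hub by -0.06 to -0.00 and were not called.

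Sema3d, another secreted class 3 gene, separated both wound regions from the control. It read 4.97, 4.54 and 4.80 in the leading edge, 5.17, 4.92 and 5.04 in the hub and 6.11, 6.02 and 6.51 in the control. The control arrays were highest, and leading edge and hub overlapped. The leading edge was lower than the control by -1.44 ± 0.15 (2.72-fold, adjusted p = 9.46e-05) and the hub by -1.17 ± 0.15 (2.25-fold, adjusted p = 0.00186). Leading edge and hub differed by -0.27, with an interval of -0.60 to 0.06. All levels were within the background range, and both probe sets gave -1.46 to -1.44 against the control. Fibroblast marker means ran in the same order, and their part in this result was not tested. The remaining semaphorins include the class 5 and class 7 genes, the other 3 of class 6 and the other 5 of class 3. By the probe set that stands for each gene, 0 of them were called by limma in any comparison. At an unadjusted p under 0.05 they gave Sema6a between leading edge and hub, Sema6a and Sema7a between leading edge and control, and Sema3a and Sema5a between hub and control. Sema6a, at 8.39, 8.32 and 8.41 in the leading edge against 8.20, 8.11 and 7.88 in the hub and 8.01, 8.31 and 7.88 in the control, did not overlap with either group and still missed the threshold (0.31, adjusted p = 0.151 and 0.30, adjusted p = 0.107).

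**Figure D3:**
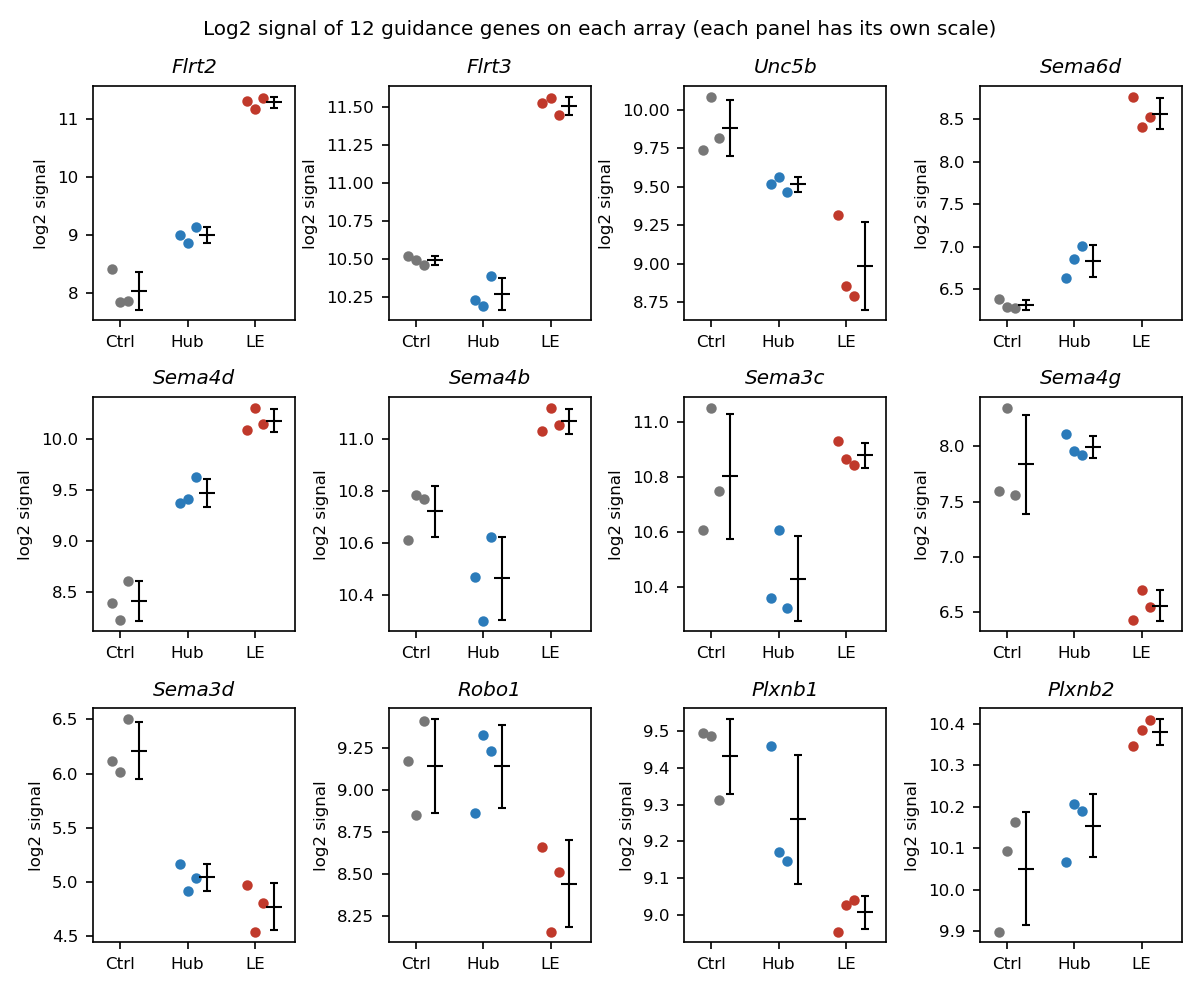
Log2 signal of 12 guidance genes on each array, with control (Ctrl), hub and leading edge (LE) as coloured points and the group mean with its SD as black bars, each panel on its own scale. Flrt2, Flrt3, Sema6d, Sema4d and Sema4b are highest in all 3 leading edge arrays, and Sema4g, Unc5b and Robo1 are lowest there.

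Plexins, the semaphorin receptors, gave 0 calls by limma among 9 genes between leading edge and hub (-0.25 to 0.26) and 0 between hub and control. Over all genes, 10.6% and 7.28% were called in these comparisons. Between leading edge and control 6 plexins were called, where 22.8% of all genes were. At an unadjusted p under 0.05, the first comparison gave 3 plexins (Plxna4, Plxnb1 and Plxnb2) and hub versus control gave 2 (Plxna2 and Plxna3). Plxna1, Plxna2, Plxna3 and Plxnb1 were lower, and Plxna4 and Plxnb2 higher, than in the control. The sizes were small, from -0.60 to 0.34 on the log2 scale. Plxnb1 and Plxnb2, both receptors for SEMA4D, went opposite ways. Plxnb1 read 8.95, 9.03 and 9.04 in the leading edge, 9.46, 9.17 and 9.15 in the hub and 9.50, 9.49 and 9.31 in the control. It was lower in the leading edge than in the control by -0.42 ± 0.10 (adjusted p = 0.0109), and this call held when each array was left out. Plxnb2 read 10.35, 10.39 and 10.41 in the leading edge, 10.07, 10.21 and 10.19 in the hub and 9.90, 10.09 and 10.16 in the control. It was higher than in the control by 0.33 ± 0.08 (adjusted p = 0.0177), a call lost without leading edge replicate 2 or 3 (adjusted p up to 0.0588). For both genes the leading edge arrays did not overlap with the control arrays. With the mean of the myeloid markers as a covariate, 8 of the 19 calls against the control were kept (Flrt2, Flrt3, Robo1, Sema3d, Sema4d, Sema4g, Sema6d and Unc5b), and with that of the endothelial markers 10 were (those with Plxna1 and Plxna3). Plxnb1 and Plxnb2 then differed by -0.39 and 0.32 with the first and by -0.34 and 0.35 with the second, close to the differences above. Leading edge replicates 1 and 3 hold the high myeloid means, so the myeloid fit rests largely on replicate 2 and loses precision for all genes. The share of all genes called with these covariates is not given here. The counts kept are therefore no result about guidance genes.

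Plexin A genes are receptors for class 6 semaphorins and, with neuropilins, for class 3. Plxna2 read 7.85, 7.93 and 8.18 in the leading edge and 8.32, 8.41 and 8.48 in the control, a difference of -0.42 ± 0.09 (adjusted p = 0.0109) that held when each array was left out. Plxna1 was lower by -0.29 ± 0.07 (adjusted p = 0.017), Plxna3 by -0.60 ± 0.15 (adjusted p = 0.0183) and Plxna4 was higher by 0.34 ± 0.08 (adjusted p = 0.0179). The call of Plxna1 was lost without leading edge replicate 3 or control replicate 3 (adjusted p up to 0.0567). The call of Plxna3 was lost without leading edge replicate 2 or 3 (adjusted p up to 0.0737), and that of Plxna4 without leading edge replicate 3 or control replicate 2 (adjusted p up to 0.0582). The second probe sets of Plxna1 and Plxna3 gave 0.08 each, so these falls rest on 1 of 2 probe sets, and the mean of both gave -0.10 and -0.26, not called. Plxna3 and Plxna4 lay within the background range.

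Neuropilins split in the comparison with the control. Nrp1 read 5.99, 6.03 and 6.29 in the leading edge, 6.31, 6.40 and 6.32 in the hub and 7.10, 6.50 and 6.41 in the control, a difference of -0.57 ± 0.17 (adjusted p = 0.035). Control replicate 1 stood above the other 2, and all group means of Nrp1 lay within the background range. Nrp2 read 9.02, 8.89 and 8.83 in the leading edge, 8.43, 8.97 and 8.29 in the hub and 8.57, 7.50 and 7.73 in the control, a difference of 0.99 ± 0.26 (adjusted p = 0.0224). The Nrp1 call was lost without leading edge replicate 1 or 2 or any 1 hub array (-0.70 to -0.35, adjusted p up to 0.109). The other probe sets of Nrp1 gave -0.44, called, and -0.15, not called (adjusted p = 0.0156 and 0.154). Their mean with the first gave -0.38 and was called (adjusted p = 0.00797). The Nrp2 call was lost without any 1 leading edge array or control replicate 2 or 3 (0.77 to 1.30, adjusted p up to 0.0737). The second probe set of Nrp2 gave 0.68 against the control, and the mean of both gave 0.83, neither called (adjusted p = 0.178 and 0.0523). With the endothelial mean as a covariate, Nrp1 differed from the control by -0.58 and Nrp2 by 0.78, and neither was called (adjusted p = 0.124 and 0.161). Between leading edge and hub, neither neuropilin was called (-0.24 and 0.35).

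**Figure D4:**
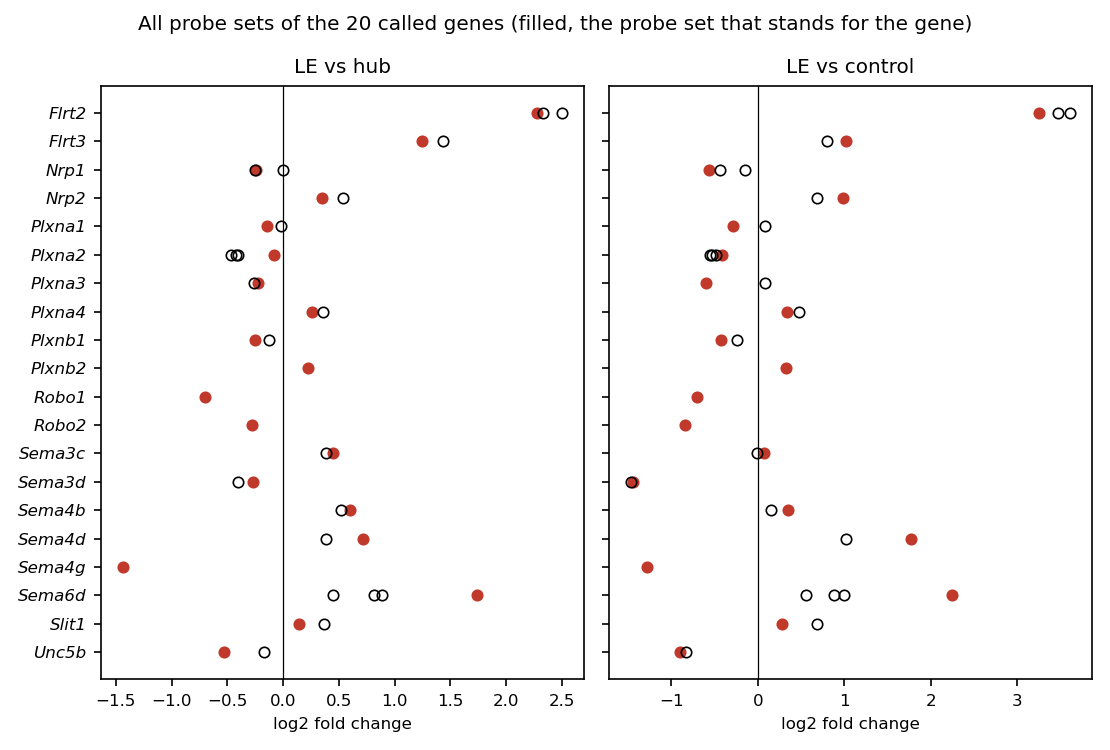
Log2 fold change of every probe set of the 20 called genes between leading edge and hub and between leading edge and control, with the probe set that stands for the gene filled. The 3 probe sets of Flrt2 and the 2 of Flrt3 lie close together, while those of Sema6d spread from 0.45 to 1.73 in the left panel.

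Among 6 ROBO and slit genes, Robo1 was called between leading edge and hub (10.6% of all genes were) and Robo1, Robo2 and Slit1 between leading edge and control (22.8% were). Robo1 read 8.66, 8.15 and 8.51 in the leading edge, 8.86, 9.33 and 9.23 in the hub and 9.18, 8.85 and 9.41 in the control. Leading edge arrays were the lowest, and hub and control overlapped. Robo1 was lower in the leading edge by -0.70 ± 0.18 than the hub (1.63-fold, adjusted p = 0.0372) and by -0.70 ± 0.18 than the control (adjusted p = 0.0198). The call against the hub was lost without leading edge replicate 2 or 3 or hub replicate 2 or 3 (-0.84 to -0.56, adjusted p up to 0.128), and that against the control without leading edge replicate 2 or control replicate 1 or 3 (adjusted p up to 0.0729). With the myeloid mean as a covariate, Robo1 differed from the hub by -1.01 and was not called (adjusted p = 0.0562). Robo2 read 4.52, 4.34 and 4.57 in the leading edge and 5.97, 4.64 and 5.36 in the control, near the background median, a difference of -0.84 ± 0.27 (adjusted p = 0.0478). Its call was lost without any 1 of 8 arrays, all but control replicate 2. Robo3 and Robo4 were not called. Slit1 read 8.07, 7.86 and 8.10 in the leading edge and 7.63, 7.74 and 7.83 in the control, a difference of 0.28 ± 0.08 (adjusted p = 0.0406). It was no longer called without leading edge replicate 1 or 3, any 1 hub array or control replicate 1 or 2 (0.23 to 0.35, adjusted p up to 0.131). The second probe set of Slit1 gave 0.68 and the mean of both 0.48, both called (adjusted p = 0.00336 and 0.0007). With the myeloid mean as a covariate, Slit1 differed by 0.10 and was not called (adjusted p = 0.717). All group means of Slit1 lay within the background range. Slit2, a ligand of ROBO1, read 5.92 to 6.12 on all 9 arrays and was not called.

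Netrins gave 0 calls by limma among 6 genes in any comparison, with 0 at an unadjusted p under 0.05. Over all genes, hub versus control gave 7.28%, while the leading edge gave 10.6% against the hub and 22.8% against the control. At these shares, 0 calls among so few genes says little. The 6 include Ntng1 and Ntng2, for which binding to UNC5 receptors is not assumed here. Ntn1, the founding ligand of the UNC5 and DCC receptors, had group means of 6.22 (leading edge), 6.06 (hub) and 5.98 (control). Netrin differences ran from -0.07 to 0.16 between leading edge and hub and from -0.14 to 0.25 between leading edge and control. For Ntn1 the 95% interval of the measured difference from the control was -0.15 to 0.65. All 6 netrins had group means within the background range, where differences are compressed. The interval therefore does not bound the change in netrin RNA, and whether these genes were detected cannot be told. Unc5b fell without a called change in a netrin, and a link between Unc5b and netrins was not tested.

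Ligand and receptor pairs known from other systems were set side by side. Flrt3 rose in the leading edge against both other groups while Unc5b fell. Sema4d rose against the control, with Plxnb2 higher and Plxnb1 lower. Robo1 fell with Slit2 not called and with Slit1 called higher against the control (0.28). Nrp2 rose with Sema3f not called (-0.09 against the control). Nrp1 fell with Sema3a not called (0.11). Plxnd1 and Sema3e, Plxnc1 and Sema7a, and Plxna4 and Sema6a include 1 call, Plxna4 against the control.

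Other genes of these pathways came from lists of co-receptors, further ligands and intracellular effectors, of which 56 of 64 were measured. Between leading edge and hub 11 were higher and 6 lower, which is 30.4% of them where 10.6% of all genes were called. Between leading edge and control 14 were higher and 8 lower, or 39.3% against 22.8% of all genes, and between hub and control 5 were higher and 5 lower, or 17.9% against 7.28%. Their median log2 difference was 0.05, 0.05 and 0.07. These lists were chosen with earlier results of these data known, and they include Itgb1, the partner of the sorted α5 integrin. The mean of the 38 measured effectors was 8.29 to 8.58 per array, above the array medians of 6.47 to 6.53. The shares over all genes include dim genes, so the higher shares of the lists are a description only.

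Among co-receptors, Met, the hepatocyte growth factor receptor that associates with plexin B receptors, read 10.79, 10.77 and 10.72 in the leading edge, 9.72, 10.01 and 10.10 in the hub and 9.60, 9.47 and 9.54 in the control. All leading edge arrays were above all others. Met was higher in the leading edge than in hub cells by 0.82 ± 0.10 (adjusted p = 0.000761). Itgb1, the integrin β1 subunit, was higher by 0.88 ± 0.07 (adjusted p = 8.97e-05), and it pairs with the α5 integrin used in the sort. Neo1, the neogenin receptor of netrins and RGM proteins, read 9.49, 9.62 and 9.43 in the leading edge, 10.25, 10.19 and 10.34 in the hub and 10.60, 10.70 and 10.68 in the control. Its groups did not overlap, and the leading edge was lower than the hub by -0.75 ± 0.07 (adjusted p = 0.000313) and than the control by -1.15 ± 0.07 (adjusted p = 6.52e-06). Rgmb, an RGM ligand of neogenin, was lower than in the hub by -0.75 ± 0.17 (adjusted p = 0.0223), a call lost without any 1 leading edge array or hub replicate 1 or 3. As the mean of all probe sets, Rgmb differed by -0.38 and was called (adjusted p = 0.028). Neogenin and its ligand Rgmb were thus both lower in the leading edge.

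Vegfa, the vascular growth factor that binds neuropilins, was higher in the leading edge than in hub cells by 1.23 ± 0.15 (adjusted p = 0.000767), with 10.97, 11.35 and 10.88 against 9.93, 9.81 and 9.78. Downstream, the actin regulators Limk1 (0.89 ± 0.19, adjusted p = 0.0154) and Evl (0.75 ± 0.13, adjusted p = 0.00548) were higher, as were the small GTPase Rras2 (0.85 ± 0.16, adjusted p = 0.00848) and the kinase Fes (0.74 ± 0.17, adjusted p = 0.0197). Mical1, an enzyme that disassembles actin filaments, was lower (-0.81 ± 0.17, adjusted p = 0.0146). Mical2, of the same family, was called in the other direction. As the mean of its probe sets it was higher by 0.73 (adjusted p = 0.00912). The Mical2 call held when each array was left out and was lost with the myeloid mean as a covariate (0.68, adjusted p = 0.168). The Limk1 call was lost without any 1 leading edge array or hub replicate 1. The Fes call was lost without leading edge replicate 2 or 3 or hub replicate 1 or 3, and that of Mical1 without leading edge replicate 1 or 2 or hub replicate 3. As the mean of all probe sets, Limk1 differed by 0.28 and Mical1 by -0.46, and neither was called (adjusted p = 0.0764 and 0.0517). With the myeloid mean as a covariate, Limk1 differed by 0.88, Rras2 by 0.78, Evl by 0.59, Rgmb by -0.82 and Mical1 by -0.94, sizes near those above, and none of these 5 was called. With leading edge replicate 2 as the only leading edge array, Met, Itgb1, Neo1 and Vegfa were called, and Limk1 (0.89), Rras2 (0.82), Fes (1.03), Evl (0.59), Rgmb (-0.83) and Mical1 (-0.92) were not.

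Across the 50 genes, the leading edge and the hub were separated without overlap for 16 (32%), where 30% of all genes were, so the count of separated genes was near the background. For leading edge and control it was 24 (48%) against 36.2%, and for hub and control 18 (36%) against 23.8%. At an unadjusted p under 0.05 the counts were 14 (28%) against 22.7% of all genes, 22 (44%) against 33.4% and 14 (28%) against 19.5%, in the same order. The 30 genes called in no comparison differed by -0.43 to 0.33 in the probe sets that stand for them. Between leading edge and control, another probe set was called for Sema5a (-0.72), Sema3e (-0.41) and Sema3b (0.35).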

How the data were processed

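The authors normalized the scanned Affymetrix mouse PM strip arrays with RMA, whose version was not found in the sources read, and deposited 1 table of log2 values for 45141 probe sets on 9 arrays. RMA gives all arrays 1 distribution, so a change in total RNA cannot be measured and differences near background are compressed. Arrays have no depth, and their number (3 a group) limits the precision. Gene names of probe sets are those of the platform annotation: 28898 had 1 symbol, 551 several and 15588 none, and 104 were controls. Each gene was represented by its probe set with the highest mean over 9 arrays, which left 17097 genes. All 50 guidance genes, with 97 probe sets, were found in RefSeq (GRCm38.p6). No filter on dim genes was used.

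Groups came from the labels. All 9 arrays entered 1 model with group means (limma 3.58.1, R 4.3.3, lmFit and eBayes, two-sided, Benjamini-Hochberg over all genes). The members, lists and tests were chosen with earlier results of these data known. Every called guidance gene, the listed ligand and receptor pairs and the 10 largest called pathway genes between leading edge and hub are named. Mical2 and the latrophilins were added after their values were seen. Tested on simulated data for leading edge versus hub (200 of 17097 genes changed, 10 draws), the fit recovered 54% of log2 changes of 0.5, 89.5% of 1 and 98.8% of 2, and 5.04% of calls were false. Arrays of 1 group correlated at 0.988 to 0.995 and arrays of different groups at 0.961 to 0.986, and 0 pairs of arrays were identical. Alternatives were array weights, a mean-variance trend, a replicate block, median centring, quantile normalization repeated, all probe sets, their mean per gene, dim genes left out, only the 6 arrays compared, fold rules, myeloid and endothelial covariates and leaving out each array.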

Additional observations from a re-analysis of the deposited data

How the results depend on the processing

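The 32 calls of guidance genes kept their direction under all alternatives run, and 12 of them stayed past the threshold in every other limma fit (12 alternative fits and 9 that leave out 1 array). The 2-fold minimum and the fold rules, counted separately here, dropped some of those 12, such as Unc5b against the control. Of 9, 19 and 4 genes called (leading edge versus hub, leading edge versus control, hub versus control), leaving out 1 array gave 6 to 9, 12 to 19 and 3 to 5. The low of 12 came without leading edge replicate 2 and without leading edge replicate 3. A 2-fold minimum left 4, 6 and 2, the methods' fold rule in same-numbered pairs 4, 5 and 0, and the same rule over all 9 pairings 4, 4 and 0. Leading edge versus control gave 8 with a covariate for the mean of the myeloid list and 10 with the endothelial one. The share of all genes called in these fits is not given here. Leaving out leading edge replicates 1 and 3 together, a choice made after seeing the data, gave 3, 7 and 4 and leaves 1 leading edge array, which is assumed to vary like the others. With a replicate block the counts were 8, 17 and 3. Deviations of same-numbered arrays correlated at -0.18 to 0.08 over 9 pairs, and those of differently numbered arrays at -0.15 to 0.12. With 3 arrays a group, this cannot show whether same-numbered samples share mice or a sort. Signal over background limits the 33 genes within the background range.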
